A study of Rattus norvegicus with 6 samples.

Results

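The miRNAs described here are rno-miR-31a-5p and rno-miR-31a-3p, the strands of one hairpin, and rno-miR-204-5p, rno-miR-137-3p, rno-miR-153-3p, rno-miR-3558-3p and rno-miR-3099 of the rat. They were chosen by their measured signal, for a wide range between samples of one group, and they are 7 of 758 miRNAs on the array and 7 of 449 that were tested. Total RNA of myocardium from male rats 8 weeks old was measured on single-colour microarrays, 1 array per sample, with the dye cyanine 3. The 3 control samples are labelled 0 h and come from rats operated on without ligation of the artery, and the 3 samples labelled MI, for myocardial infarction, come from rats whose left coronary artery had been tied off 24 h earlier and in which electrocardiography and other signs showed that the infarction had been induced. The operation is shared by both groups, and time cannot be told apart from ligation. The labels give no strain and tie no sample to its own animal, so p-values measure only the spread between these samples, which may be technical.

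MiRNAs are short RNAs cut from a hairpin precursor, and they lower the output of messenger RNAs that pair with them, mainly through the seed, bases 2 to 8. Each hairpin can give a 5p and a 3p strand, usually in unequal amounts. MiR-31 has been studied in epithelial, smooth muscle and immune cells. MiR-204 is encoded in an intron of the cation channel gene Trpm3 and is abundant in the pigment epithelium of the eye. MiR-137 and miR-153 are known as miRNAs of the brain, and miR-137 takes part in the differentiation of neurons in mouse. None of them is a classical miRNA of heart muscle.

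The mature sequences of all 7 were found in RefSeq (build GRCr8) and are shown because the members were compared with their seed relatives and with the transcript on the opposite strand. The seed is in capitals and all sequences run 5′ to 3′.
rno-miR-31a-5p: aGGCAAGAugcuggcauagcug
rno-miR-31a-3p: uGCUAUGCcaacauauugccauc
rno-miR-204-5p: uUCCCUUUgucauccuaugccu
rno-miR-137-3p: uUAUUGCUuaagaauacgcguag
rno-miR-153-3p: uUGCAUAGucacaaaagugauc
rno-miR-3558-3p: aCUGUGGAggguuucuaugu
rno-miR-3099: uAGGCUAGaaagagguugggga
rno-miR-211-5p: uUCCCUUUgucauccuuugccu
rno-miR-31b: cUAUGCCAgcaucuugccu

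The 7 members carry 7 distinct seeds, so no member shares its seed with another. In that table a single other rat miRNA had the seed of a member: miR-211-5p, which shares the seed of miR-204-5p and differs from it by 1 substitution, A17U, counted from the 5′ end of miR-204-5p. MiR-31b is read from the opposite strand of the miR-31a locus, and its 19 bases are the reverse complement of bases 1 to 19 of miR-31a-5p. In GRCr8 the 2 strands of miR-31a lie at chr5:108714906-108714927 (5p) and chr5:108714869-108714891 (3p) on the minus strand. MiR-204-5p lies at chr1:229743493-229743514 on the plus strand, within the span of Trpm3. MiR-137-3p lies at chr2:209165767-209165789 on the plus strand. MiR-153-3p lies at chr6:144306646-144306667 on the plus strand, within the span of Ptprn2, which encodes a protein of secretory vesicles. MiR-3558-3p lies at chr6:12935330-12935349 on the minus strand, within the span of Ttc7a, and miR-3099 at chr1:76057109-76057130 on the minus strand, within no annotated gene but its own. Apart from the strands of miR-31a, the members are not neighbours in the genome.

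Values below are log2 signals: each array was scaled to a common 75th percentile and the probes of a miRNA were summed, so a value of 1 more means a signal 2 times as high. Different miRNAs bind their probes with different strength, so levels were compared between arrays and not between miRNAs. All 7 members passed the filter for testing. Of these, 6 were well above background on all 6 arrays, and miR-153-3p was on 5, missing control sample 1.

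The strands of miR-31a had the widest ranges within a group of the 449 tested miRNAs, while miR-204-5p had the highest pooled SD. MiR-31a-5p stood at 8.82, 6.97 and 9.78 in control samples 1 to 3 and at 8.38, 9.01 and 9.02 in MI samples 1 to 3. Control sample 2 was the lowest of the 6 and control sample 3 the highest, 7.04-fold apart, and all 3 MI samples lay between them. MiR-31a-3p, the other strand of the same hairpin, stood at 6.67, 4.75 and 7.72 in controls and at 6.34, 6.98 and 6.99 after MI. It had the same samples at its lowest and highest, 7.81-fold apart in controls against 1.58-fold after MI. For miR-31a-5p the fold between highest and lowest MI sample was 1.56. Over the 6 arrays the gap between the strands varied by 0.19 on the log2 scale, while the strands themselves moved by 2.81 and 2.97. MiR-31b, from the opposite strand, did not follow: its values were 4.76, 4.61 and 4.51 in controls and 4.47, 4.36 and 4.71 after MI, a range of 0.25 and 0.36.

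MiR-204-5p was spread widely in both groups. Its signal was 8.43, 7.49 and 9.37 in control samples 1 to 3 and 6.53, 8.83 and 8.81 in MI samples 1 to 3. Control sample 2 was again the lowest control and control sample 3 the highest, 3.68-fold apart. MI sample 1 was the lowest of the 6 arrays, 4.91-fold below MI sample 2, while MI samples 2 and 3 differed by 0.02. MiR-211-5p, the seed relative, stood at 4.46, 3.71 and 5.59 in controls and 2.89, 4.98 and 4.81 after MI, with the same samples high and low. It was well above background on 2 arrays of each group and was not tested. With 1 base between them, binding of miR-204-5p to the probes of miR-211-5p cannot be told apart from signal of miR-211-5p here. MiR-204-3p, the other strand of the miR-204 hairpin, did not show this spread in controls, with 5.26, 4.99 and 5.19, and had 5.09, 5.30 and 5.96 after MI.

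**Figure D1:**
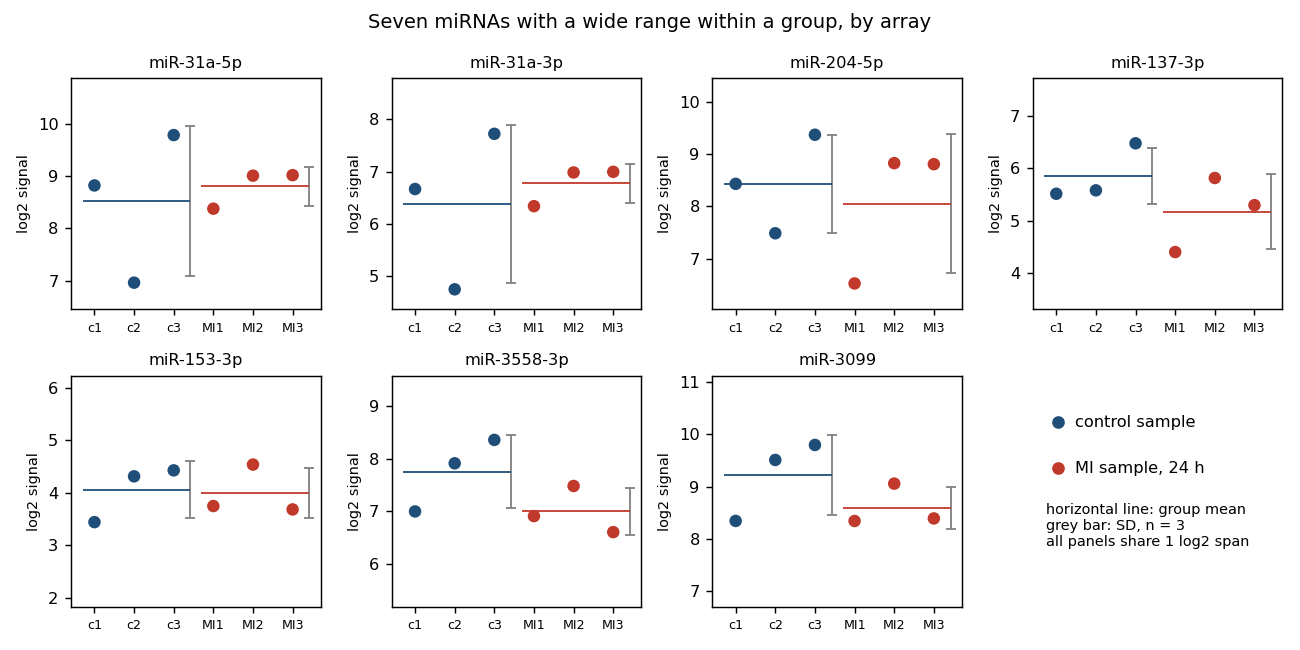
Log2 signal of the 7 members on each array (c, control; MI, 24 h after ligation); points are samples, horizontal lines group means and grey bars the SD (n = 3). Control sample 3 is the highest control in all 7 panels, and in every panel the groups overlap.

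MiR-137-3p stood at 5.51, 5.58 and 6.47 in controls and at 4.40, 5.81 and 5.29 after MI. Control sample 3 and MI sample 2 were the high arrays of their groups and MI sample 1 was the lowest of all 6, 2.66-fold below MI sample 2. The other strand, miR-137-5p, lay between 7.01 and 7.15 in controls and stood at 7.29, 7.05 and 7.08 after MI. It was highest in MI sample 1, where the 3p strand was lowest. Its range after MI was 0.25, against 1.41 for the 3p strand. MiR-153-3p had weak signal, at 3.44, 4.31 and 4.43 in controls and 3.75, 4.54 and 3.68 after MI. That signal came from a single probe of the pair, detected on 5 arrays, while the second probe and miR-153-5p were detected on 0.

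MiR-3099 stood at 8.34, 9.51 and 9.79 in control samples 1 to 3 and at 8.34, 9.06 and 8.39 in MI samples 1 to 3. Here control sample 1 was low, 2.73-fold below control sample 3, and MI sample 2 was the high MI sample. MiR-3558-3p behaved likewise, with 6.997, 7.91 and 8.36 in controls and 6.91, 7.48 and 6.60 after MI. Its highest control was 2.57-fold above its lowest. The other strand, miR-3558-5p, ran from 4.30 to 4.59 in controls and from 4.34 to 4.74 after MI.

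The spread was set beside that of all 449 tested miRNAs as a description, since the members were chosen by it. The wider of the 2 within-group ranges had a median of 0.29 over tested miRNAs, and the members lay between 0.99 and 2.97. MiR-31a-3p, miR-31a-5p and miR-204-5p ranked 1, 2 and 3. MiR-3099, miR-137-3p and miR-3558-3p ranked 5, 6 and 7, and miR-153-3p ranked 22. The members are not all the miRNAs of such a range: 15 others were at least as wide as miR-153-3p, with miR-384-5p next below it at 0.987 against 0.988. The pooled SD within groups was 1.04 for miR-31a-5p, 1.096 for miR-31a-3p and 1.15 for miR-204-5p, and 0.63, 0.51, 0.58 and 0.61 for miR-137-3p, miR-153-3p, miR-3558-3p and miR-3099, against a median of 0.13. With normexp background correction, the widest range was 1.20 for miR-31a-3p, 1.40 for miR-204-5p, 0.88 for miR-3558-3p, 0.35 for miR-137-3p and 0.13 for miR-153-3p, so miR-204-5p then exceeded miR-31a-3p. Without normexp, the widest range with control sample 2 left out was 0.96 for miR-31a-5p and 1.05 for miR-31a-3p. With control sample 1 left out it was 0.71 for miR-3099 and 0.88 for miR-3558-3p.

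**Figure D2:**
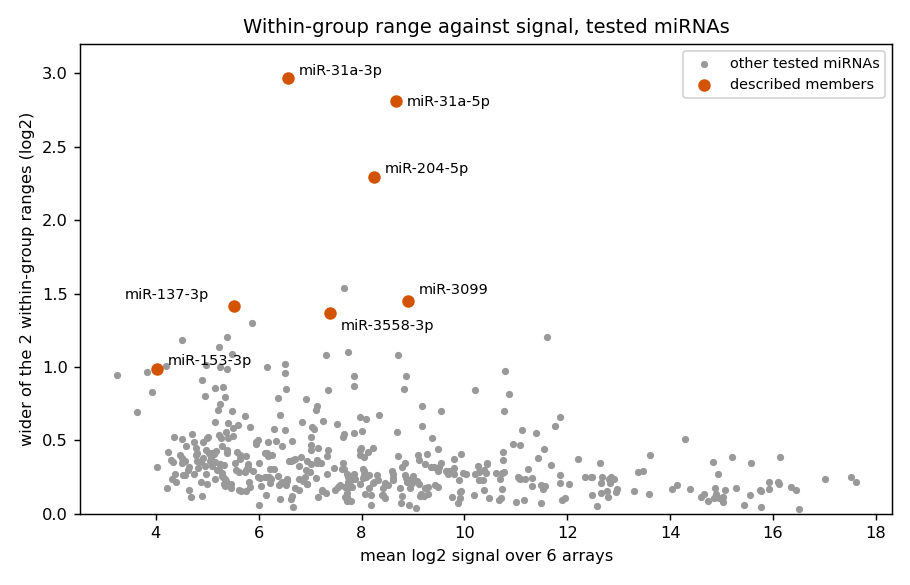
The wider of the 2 within-group ranges (log2, vertical axis) against mean log2 signal over 6 arrays for the 449 tested miRNAs; orange points are the 7 members. MiR-31a-3p, miR-31a-5p and miR-204-5p stand apart at 2.97, 2.81 and 2.29, while miR-153-3p, at 0.99, lies among other miRNAs of low signal.

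The repeated spots of an array show the scatter within that array and leave out labelling, hybridization and scan. Each member has 2 probes with up to 8 spots each on every array. For miR-31a-5p, the coefficient of variation between spots of one probe on one array was 1.42% to 5.32%, for miR-31a-3p 2.27% to 8.74%, and for miR-204-5p 1.64% to 6.67%. Over the 13 member probes well above background on at least 1 array it was at most 17.5%. The probes of a miRNA moved together: after subtraction of group means, the 2 probes of miR-31a-5p differed by at most 0.08 on any array, those of miR-204-5p by at most 0.06, those of miR-3099 by at most 0.05, and those of miR-3558-3p by at most 0.33. The probes of miR-153-3p differed by up to 0.56, with 1 of them at the floor on every array.

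Whether the members vary together was described from the signal of each array minus its group mean, over 6 arrays, with no test, since the members were picked on these values. The strands of miR-31a had a Pearson r of 1.00, and they had r of 0.76 (5p) and 0.75 (3p) with miR-204-5p. MiR-3099, miR-3558-3p and miR-153-3p formed the other close group, with r between 0.96 and 0.97. Between miR-31a-5p and these 3, r was 0.07, 0.14 and 0.02. The r of miR-153-3p rest in part on control sample 1, low in this group, where miR-153-3p was not well above background. With normexp its MI samples 1 to 3 stood at 7.11, 7.08 and 7.04, so MI sample 2 was no longer its highest. MiR-137-3p stood between the groups, with r of 0.899 with miR-204-5p and 0.67 with miR-3099. Over the 6 members well above background on all arrays, all 15 pairs had r above 0 with a median of 0.61, where 52.2% of all pairs of the 433 miRNAs detected on all arrays were above 0 with a median of 0.04. All 6 points of such an r share the arrays and their scaling, so it is a description of these samples. Without control sample 3, the array scanned apart, 10 of the 15 pairs were above 0 and the median r was 0.30.

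The arrays that set these patterns were few. In the miR-31a and miR-204-5p pattern, control sample 2 was low, control sample 3 high and MI sample 1 low. In the miR-3099, miR-3558-3p and miR-153-3p pattern, control sample 1 was low and MI sample 2 high. Control sample 3 was the highest control for 7 of 7 members, and it was the highest control for 33.4% of all tested miRNAs. In the authors' values, control sample 2 was the highest control for miR-153-3p, at 3.35 against 3.02 in control sample 3. MI sample 1 was the lowest MI sample for 5 of 7 members and for 44.8% of tested miRNAs, and MI sample 2 was the highest for 5 of 7 and for 34.7%.

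Technical values move with some of these samples. The array of control sample 3 was scanned apart from the other 5 arrays, so scan and sample cannot be told apart there. Control samples 1 and 2 differed by 1.85 for miR-31a-5p, 1.91 for miR-31a-3p, 0.94 for miR-204-5p and 1.16 for miR-3099. They differed by 0.92 for miR-3558-3p, 0.87 for miR-153-3p and 0.07 for miR-137-3p. Among the 449 tested miRNAs these differences ranked 2, 1, 7, 3, 8, 9 and 330, in that order. The members were chosen for such ranges, and the part of the scan was not tested. The array headers hold a code, which was 1 for the controls and MI sample 1 and 2 for MI samples 2 and 3, so that code and sample cannot be told apart within the MI group. The median unscaled spot signal was 15.3, 13.6 and 16.4 in control samples 1 to 3 and 12.7, 16.0 and 15.9 in MI samples 1 to 3, and 458, 447, 472, 446, 466 and 468 miRNAs were detected on these arrays. Control sample 2 and MI sample 1 were thus low and control sample 3 high on these measures too. The highest median spot signal was 1.21 times the lowest in controls and 1.26 times after MI. Over the 7 members, the fold between highest and lowest control ran from 1.95 for miR-137-3p to 7.81 for miR-31a-3p. The part of these array differences in the spread was not tested.

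**Figure D3:**
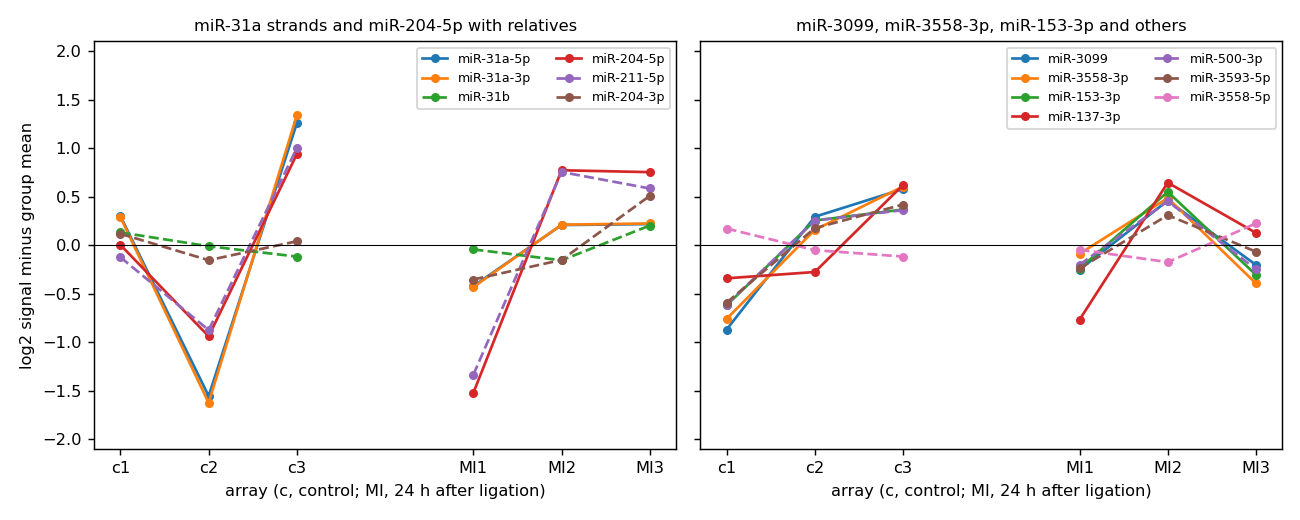
Log2 signal minus group mean on each array for miR-31a, miR-204-5p and their relatives (left) and for miR-3099, miR-3558-3p, miR-153-3p, miR-137-3p and others (right); solid lines are members, dashed lines other miRNAs, and lines only join the values of one miRNA. MiR-31a-5p and miR-31a-3p overlie each other with control sample 2 low, miR-31b stays near 0, and miR-3099, miR-3558-3p, miR-153-3p, miR-500-3p and miR-3593-5p are low in control sample 1 and high in MI sample 2.

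For each member detected on all arrays, the non-member most like it was sought among miRNAs with at least 0.5 times its pooled SD. These r rest on 6 arrays that the miRNAs share. For miR-31a-5p and miR-31a-3p it was miR-434-3p, with r of 0.67 each among 4 and 2 candidates. For miR-204-5p the sole candidate was miR-196c-5p, with r of 0.04. Below that limit on the SD, and named after their values were seen with it, miR-141-3p, miR-434-3p and miR-223-3p had r of 0.92, 0.88 and 0.81 with miR-204-5p. MiR-337-3p and miR-211-5p, not detected on all arrays, had r of 0.91 and 0.99. MiR-137-3p was most like miR-141-3p, a miRNA of the epithelial miR-200 family, with r of 0.99 among 37 candidates, and r with miR-434-3p, from the imprinted Dlk1-Dio3 region, was also 0.99. MiR-3558-3p was most like miR-500-3p, with r of 0.97 among 41, and miR-3099 most like miR-3593-5p, with r of 0.99 among 38.

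The values of those last miRNAs show the same arrays high and low. MiR-500-3p stood at 10.43, 11.30 and 11.40 in controls and 10.34, 10.99 and 10.29 after MI. MiR-3593-5p stood at 4.65, 5.41 and 5.66 in controls and 4.47, 5.02 and 4.64 after MI. MiR-3588, named after its values were seen, stood at 10.00, 10.79 and 10.84 in controls and 9.61, 10.39 and 9.57 after MI, with r of 1.00 with miR-153-3p. In GRCr8 the genes of miR-3558 and miR-3593 lie on chromosome 6 and those of miR-500 and miR-3588 on chromosomes X and 11.

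The comparison of MI with control asked which miRNAs differed 24 h after ligation, and none of the 7 members passed the threshold in limma. Across all 449 tested miRNAs, 11 passed at a Benjamini-Hochberg adjusted p under 0.05, which is 2.45%: 8 were higher after MI (1.78%) and 3 lower (0.668%). That split was 5 and 5 with arrays scaled over all probes, 6 and 1 without scaling, and 5 and 3 in the authors' values. Among the members 0 were higher and 0 lower. At an unadjusted p under 0.05, 61 of the tested miRNAs passed (13.6%) and 0 of 7 members did. The groups did not overlap for 93 tested miRNAs (20.7%) and for 0 of 7 members. Since the members were picked for a wide range within a group, their counts follow in part from the choice.

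The differences carried wide intervals. The log2 difference, MI minus control, for miR-31a-5p was 0.28 ± 0.67 (SE, n = 3 in each group), with a 95% interval from -1.33 to 1.89 and a limma p of 0.880 after Benjamini-Hochberg adjustment. That interval spans 2-fold in both directions. MiR-31a-3p stood at 0.39 ± 0.70 (limma adjusted p = 0.828), from -1.30 to 2.08. MiR-204-5p stood at -0.37 ± 0.73 (limma adjusted p = 0.858), from -2.14 to 1.39. The other 4 members had means below those of controls without passing the threshold. MiR-3558-3p stood at -0.76 ± 0.38 (limma adjusted p = 0.460), from -1.67 to 0.15. MiR-137-3p stood at -0.69 ± 0.41 (limma adjusted p = 0.525), from -1.67 to 0.30, miR-3099 at -0.62 ± 0.40 (limma adjusted p = 0.533), from -1.57 to 0.33, and miR-153-3p at -0.07 ± 0.33 (limma adjusted p = 0.934), from -0.87 to 0.72. The median log2 fold change was -0.37 over the 7 members, against 0.02 over all tested miRNAs. The members share the arrays and some vary together, so their differences are not independent and this median is a description only. The median SE was 0.10 over all tested miRNAs and between 0.33 and 0.73 for the members.

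Single samples set the sign for miR-31a and miR-204-5p. Without control sample 2, the log2 fold change was -0.50 for miR-31a-5p and -0.42 for miR-31a-3p (limma adjusted p = 0.721 and 0.770). Without MI sample 1 it was 0.39 for miR-204-5p, and without control sample 3 it was 0.09 (limma adjusted p = 0.826 and 0.975). A fit blocked on array code rests on MI sample 1 against the 3 controls and gave -0.15 for miR-31a-5p, -0.040 for miR-31a-3p and -1.90 for miR-204-5p (limma adjusted p = 0.978, 0.994 and 0.448). For miR-153-3p the value lay between -0.38 and 0.11 when single samples were left out, and its sign changed with control sample 2, control sample 3, MI sample 1 or MI sample 3 left out. The other members kept their sign, between -1.01 and -0.30 for miR-137-3p, -1.14 and -0.46 for miR-3558-3p, and -1.05 and -0.33 for miR-3099. The code block gave -1.45 for miR-137-3p and -0.31 for miR-153-3p.

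**Figure D4:**
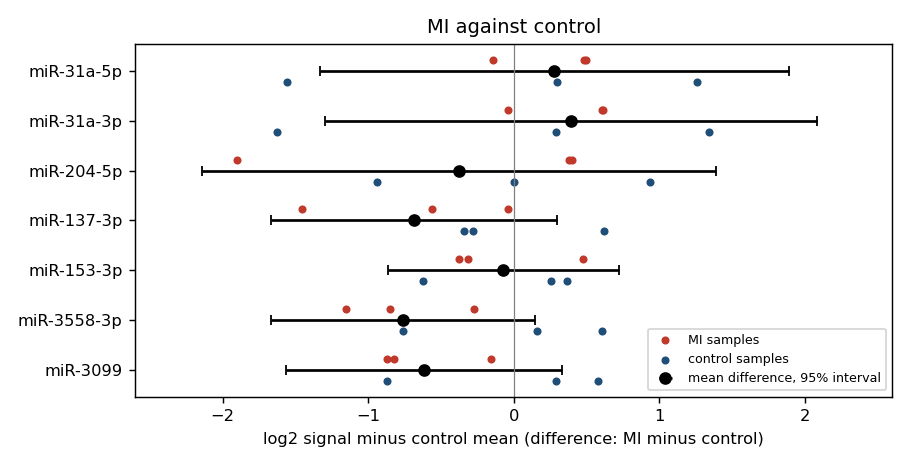
Log2 signal minus the control mean for each sample (blue, control; red, MI) and the mean difference MI minus control with its 95% interval from limma (black) for the 7 members. Every interval spans 0, from -1.33 to 1.89 for miR-31a-5p and from -1.67 to 0.15 for miR-3558-3p.

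The other strands and relatives of the members were read in the same fit. On the log2 fold change scale, miR-204-3p stood at 0.30 ± 0.22 (SE; limma adjusted p = 0.603), miR-137-5p at 0.06 ± 0.09 (limma adjusted p = 0.796) and miR-3558-5p at 0.10 ± 0.13 (limma adjusted p = 0.784). MiR-31b stood at -0.11 ± 0.12 (limma adjusted p = 0.696). None of these strands passed the threshold.

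The labelled tissue was checked against lists of marker miRNAs, and the summed signal of each list was set beside the members by array. The brightest miRNAs weigh most in such a sum, and it does not measure cell content. All 8 muscle miRNAs were detected on all 6 arrays, and their summed signal lay between 374128 and 439497 in controls and between 392013 and 415299 after MI. This sum was highest in control sample 2 and MI sample 1 and lowest in control sample 3 and MI sample 2, so the samples low for miR-31a and miR-204-5p were high here. Of the 4 stromal markers 3 were detected, with a sum from 13184 to 17571 in controls and from 14226 to 17973 after MI. That sum was lowest in control sample 2 and in MI sample 1 of their groups, the samples low for miR-31a and miR-204-5p, and the range in controls of its brightest member, miR-199a-3p, was 0.40 on the log2 scale. The neural list had 7 of 8 members tested and 6 detected on all arrays, with a sum from 1902 to 2154 in controls and from 1675 to 2152 after MI, lowest in MI sample 1 and highest in control sample 3 and MI sample 2. MiR-128-3p, its brightest member, stood at 9.89, 9.95 and 9.93 in controls and at 9.72, 10.13 and 10.02 after MI. MI sample 1 was lowest and MI sample 2 highest, as for miR-137-3p and miR-204-5p. Among controls its highest was sample 2, while control sample 3 was highest for those members. MiR-219a-5p, the next brightest, stood at 8.92, 8.89 and 8.95 in controls and 8.92, 8.90 and 8.95 after MI, with MI sample 2 lowest. These 2 do not stand for the list, whose 7 tested members had widest within-group ranges from 0.06 to 1.01. Averaged over those 7, log2 signal minus group mean was -0.12, -0.11 and 0.23 in control samples 1 to 3. In MI samples 1 to 3 it was -0.24, 0.22 and 0.03. The lowest and highest samples of each group were those of miR-137-3p. Of 11 epithelial markers 5 were tested and 2, miR-205 and miR-183-5p, were detected on no array. The sum of this list ran from 606 to 708 in controls and from 615 to 759 after MI. It was lowest in control sample 2 and MI sample 1 and highest in control sample 3 and MI sample 3 of their groups. Its brightest member, miR-203a-3p, was lowest in control sample 3 among controls, where miR-141-3p was highest.

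The values of the remaining lists follow. The endothelial list (2 of 2 tested) had sums from 76179 to 87862 in controls and from 74116 to 74562 after MI, and the smooth muscle list (4 of 4) from 47484 to 60321 and from 47906 to 52521. The leukocyte list (6 of 6) ran from 15673 to 17857 and from 16950 to 22991, and the erythroid list (4 of 4) from 19448 to 27207 and from 24346 to 33704. The leukocyte sum was lowest in control sample 1 and highest in control sample 2 of the controls. In the MI group it was lowest in MI sample 1 and highest in MI sample 2. The erythroid sum was lowest in control sample 1 and highest in control sample 3, and after MI lowest in sample 1 and highest in sample 3. The brown adipose list (4 of 4) ran from 1765 to 1980 and from 1945 to 2027. The list of endocrine and liver miRNAs (3 of 4, with miR-375-3p not detected) ran from 445 to 647 and from 449 to 632. None of the 10 lists had a member past the threshold in limma after adjustment over all miRNAs, and their medians lay between -0.15 and 0.35 on the log2 fold change scale. The part of cell content in the spread of the members was not tested. In bulk tissue, fewer cells of a type and less RNA per cell cannot be told apart.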

How the data were processed

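The submitters' processing notes name Agilent Feature Extraction, version 11.0.1.1, and each of the 6 arrays held 12128 spots for 1806 probes. Per the file headers, the deposited spot values are intensity values with local background subtracted, and other deposited columns are flags of 0 or 1. The authors' deposited series values are on a log2 scale with a median of 3.95 in every column, and their normalization is not given in the sources used here. Outlier spots were dropped and the rest averaged per probe. The 885 probes with signal on every array set the scale (75th percentile), the probes of a miRNA were summed, and values set to a floor of 5.14 before log2. Detection meant that over 50% of a probe's spots passed the software's background flag, and testing required detection throughout at least 1 group. No spot was saturated, and precision is limited by there being 3 arrays per group. The comparison used lmFit and eBayes of limma (3.58.1, under R 4.3.3), two-sided, with group as the sole term and Benjamini-Hochberg adjustment over 449 miRNAs, and the fit was checked on simulated data. The members and lists were chosen with earlier results of these data known. Named were the members, their other strands and seed relatives, the most similar and the 5 widest non-members and up to 2 miRNAs per marker list. MiR-31b, miR-384-5p and miR-3588 were chosen after their values were seen. The files name build rn4, while sequences and coordinates are from RefSeq GRCr8. Same-numbered samples had deviations correlated at 0.12, -0.04 and 0.11 over 449 miRNAs, so the numbers were not taken as pairs. Alternatives were other scalings, probe summaries, background, floors, filters, variance settings, blocks and leaving out each sample.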

Additional observations from a re-analysis of the deposited data

How the results depend on the processing

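No member passed the threshold in limma under any of the alternatives run (adjusted p 0.150 to 1). The count of all miRNAs past it, 11, was 7 without scaling (6 higher, 1 lower), 6 with a floor 4 times as high (5 and 1), 5 with no filter (3 and 2), 3 with the replicate number as a block, 3 with the array code as a block, and 4 to 10 without single samples. The split of higher and lower was 5 and 5 with the 75th percentile over all probes and 5 and 3 in the authors' values. The replicate block kept the sign of all 7 members. Fold changes reversed for miR-31a-5p and miR-31a-3p with the code as a block (-0.15 and -0.040) and in the range without single samples (-0.50 to 0.91 and -0.42 to 1.06), for miR-204-5p without single samples (-0.84 to 0.39), and for miR-153-3p with the higher floor (0.037), with normexp (0.038) and without single samples (-0.38 to 0.11). The cause was not tested. The within-group range of miR-31a-3p, 2.97, was 1.20 with normexp, and that of miR-137-3p, 1.41, was 0.35. The normexp offset of 50 by itself narrows the log2 range of weak signals. The range of miR-153-3p was 0.43 as the mean of log2 probes, 0.17 with the higher floor and 0.13 with normexp. Without single samples the widest range lay between 0.96 and 2.81 for miR-31a-5p, 1.05 and 2.97 for miR-31a-3p, and 0.71 and 1.45 for miR-3099. The 15 member pairs above 0 were 10 without control sample 3 (median r 0.30) and 15 without any other single sample. Signal over background limits miR-153-3p, the sole member not detected on all arrays. Low signal was not confined to it: 1 probe of miR-137-3p was detected on 5 arrays, and the lowest unscaled spot mean of miR-31a-3p was 11.4.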

Other observations

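The 5 non-members with the widest range within a group were miR-196c-5p, miR-187-5p, miR-496-5p, miR-223-3p and miR-337-3p. MiR-196c-5p, a miRNA of a Hox gene cluster, stood at 6.95, 8.04 and 8.48 in control samples 1 to 3 and at 7.62, 7.63 and 7.19 after MI, so control sample 1 was low as for miR-3099. MiR-187-5p was high in a single sample, MI sample 3, with 6.94 against values from 5.44 to 5.82 elsewhere. MiR-496-5p had its low value in the same sample, 4.51, against 5.10 to 5.73 elsewhere. MiR-223-3p, abundant in myeloid cells, was even in controls, from 10.80 to 10.95, and stood at 11.64, 12.84 and 12.51 after MI, with MI sample 1 lowest as for miR-204-5p and miR-137-3p. MiR-337-3p stood at 4.65, 4.47 and 5.25 in controls and 3.63, 4.81 and 4.27 after MI, with the same samples highest and the same MI sample lowest as for miR-137-3p.

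Over all 449 tested miRNAs, the deviations of control sample 2 from its group mean correlated with those of MI sample 1 (r = 0.52) and those of control sample 3 with those of MI sample 2 (r = 0.47). These are correlations across miRNAs, which are not independent replicates. The 3 deviations of a group sum to 0, so the correlations are not independent of each other.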
